A study of Mus musculus with 4 samples.

Results

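Neutral amino acid transporters of systems L, y+L, ASC and A, with the heavy chain that several of them share, were examined as 10 genes: Slc3a2, Slc7a5, Slc7a8, Slc7a6, Slc7a7, Slc43a2, Slc1a4, Slc1a5, Slc38a1 and Slc38a2. The set is defined by symbol, as the probe sets annotated with 1 of these names alone. All 10, of 18193 gene symbols named on the array, had at least 1 probe set, and together they had 20. Of those, 17 probe sets of 9 genes passed the filter on dim signals, which asked for a signal over the 40th percentile of the array (the dim-signal limit) in 2 or more arrays, and the 3 probe sets of Slc1a4 did not pass. None of the 17 had passed through the arrays of 1 group alone.

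RNA of 2 samples of granulocytic myeloid-derived suppressor cells (G-MDSC), immature granulocytes that gather in mice with tumours, and of 2 samples of neutrophils was hybridised to Affymetrix mouse expression arrays, 1 per sample. The G-MDSC were spleen cells selected for Ly6G on microbeads from female C57BL/6 mice that had carried EL4 lymphoma cells under the skin for 3.5 weeks. The neutrophils were lavaged from the peritoneal cavity of female C57BL/6 mice given casein into the abdomen, 2 doses of 1.5 ml at 12% spaced by 16 h, with collection 3 h after the second. These cells were stripped of F4/80-positive cells before selection for Ly6G, and the red cells of all samples were lysed. Cell kind therefore came with its own tissue, treatment and sort in every array, and the effects of these cannot be told apart. No label says whether the samples of a group were from separate mice, so the p-values cover the spread between these arrays, which may be technical.

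Neutral amino acids cross the plasma membrane through several transport systems. System L exchanges large neutral amino acids such as leucine without sodium, and its light chains reach the membrane joined by a disulphide bond to the heavy chain encoded by Slc3a2 (CD98hc). The y+L light chains, which use the same heavy chain, exchange cationic amino acids for neutral amino acids with sodium. ASC carriers exchange small neutral amino acids and, in the case of Slc1a5, glutamine, and system A carriers take up small neutral amino acids and glutamine together with sodium. In leukocytes, leucine and glutamine brought in by these carriers feed protein synthesis and the mTORC1 kinase.

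Precision was limited by the number of arrays, 2 in each group, since arrays have no read depth. The median signal was between 75.8 and 83.3 in 3 arrays and 178 in neutrophils replicate 2, which stood apart; the 40th percentile there was 133, against 45.7 to 52.6 elsewhere. Log2 values of the replicates correlated across probe sets with r = 0.953 for G-MDSC and 0.875 for neutrophils. The neutrophil markers S100a8 and S100a9, which encode the calprotectin subunits, were bright in all 4 arrays, with S100a8 at 53180 and 61940 in the G-MDSC arrays and 58670 and 85890 in the neutrophil arrays. Granulocyte precursor markers were brighter in G-MDSC, where 7 of 9 tested markers were called higher (limma adjusted p at or under 0.05), with summed signals of 122700 and 113000 against 22800 and 24260. Ltf, the granule protein lactoferrin, read 30450 and 29700 in the G-MDSC arrays and 2483 and 822 in the neutrophil arrays, whereas the brightest marker of that list, Chil3, at 32000 and 39060 against 17700 and 21710, was not called. Of 22 tested macrophage markers, 12 were called lower in G-MDSC and 0 higher, and their summed signals were 51500 and 53930 in the G-MDSC arrays and 79370 and 123100 in the neutrophil arrays. Of 9 tested monocyte markers, 6 were called lower in G-MDSC.

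Across the set, most transporter signals were lower in G-MDSC than in neutrophils, but few of the differences passed the test. In limma's moderated test, adjusted by Benjamini-Hochberg over all 28754 kept probe sets, 2 of the 17 member probe sets were called lower in G-MDSC at the 0.05 threshold, those of Slc7a8 and Slc3a2. This was 11.8% of the tested member probe sets, beside 4.31% of all kept probe sets called lower. No member probe set was called higher, beside 3.72% of all kept probe sets. At an unadjusted p of 0.05 limma passed 5 of the 17 member probe sets, all lower in G-MDSC. Over all 28754 kept probe sets it passed 6559, in either direction. Both G-MDSC arrays lay below both neutrophil arrays in 9 of the 17 (52.9%), beside 30.8% of all kept probe sets, above both in 2 (11.8%), beside 23.7%, and overlapped with them in 6. Without G-MDSC replicate 1 or 2 the count called lower was 1, without neutrophils replicate 1 it was 5 with 2 called higher, and without neutrophils replicate 2, the array that stood apart, it stayed at 2 with 0 higher. A fit without 1 array takes the spread from the group that keeps 2 arrays and assumes that the lone array varies alike, and without neutrophils replicate 1 it also raised the calls over all kept probe sets to 3302 higher and 4591 lower. In bulk RNA, fewer cells of one type and less RNA per cell cannot be told apart.

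**Figure D1:**
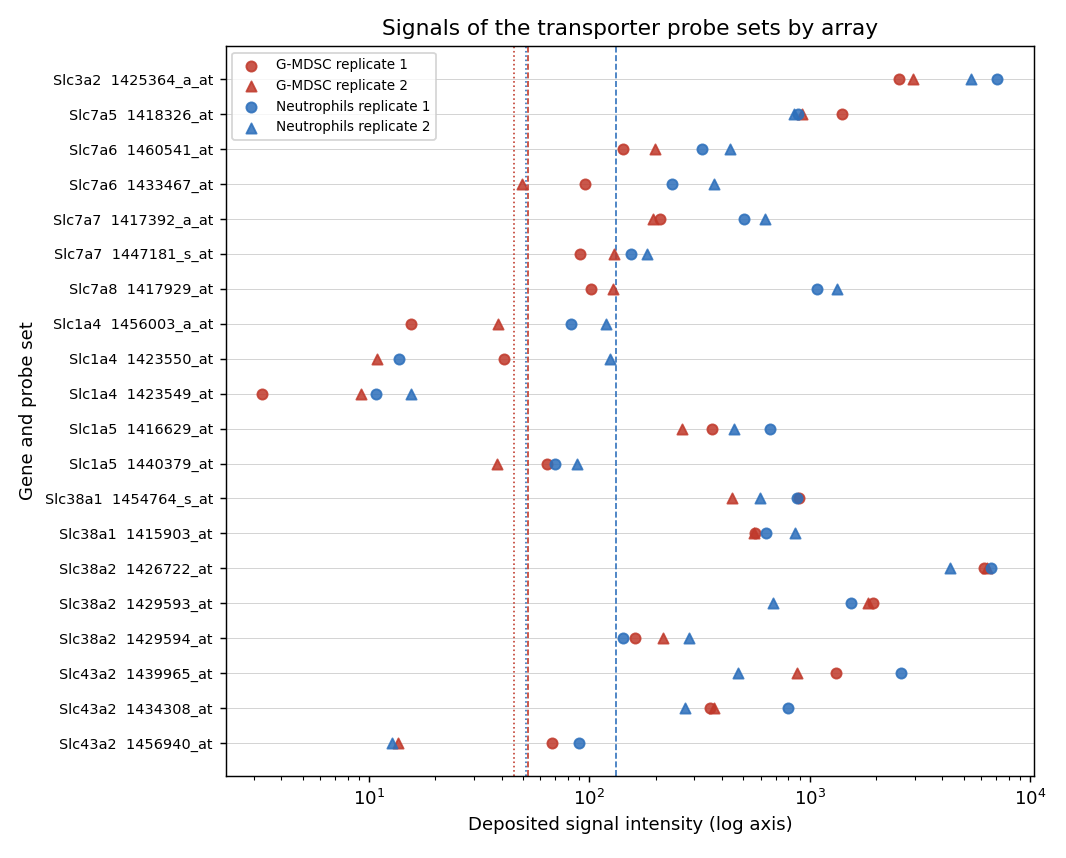
Deposited signal intensity (log axis) of each of the 20 member probe sets in the 4 arrays, with G-MDSC in red and neutrophils in blue, circles for replicate 1 and triangles for replicate 2. Vertical lines mark the 40th percentile of each array (dotted for replicate 1, dashed for replicate 2), and both neutrophil points of Slc7a8 lie far to the right of both G-MDSC points.

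The differences, always G-MDSC minus neutrophils on the log2(signal + 16) scale, had a median of -0.38 over the 17 member probe sets and of -0.20 over all kept probe sets. Relative to the median of all kept probe sets, the median member was -0.18. That median differed between the pairs of equal replicate number, at 0.01 for replicate 1 and -0.39 for replicate 2. Without neutrophils replicate 2 the medians were -0.88 over the member probe sets and 0.01 over all kept probe sets. Leaving out neutrophils replicate 1 instead gave -0.56 and -0.38. The sign was negative for 14 of the 17 as deposited, for 12 after quantile normalization and for 10 after median scaling, where the median over all kept probe sets became 0.02 and 0.04. With each gene represented by its brightest kept probe set, 7 of 9 differences were negative, their median was -0.80 and that over 13139 genes was -0.19. By that choice 2 of 9 genes were called lower and 0 higher, beside 5.62% and 5.22% of all genes.

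Slc3a2, the shared heavy chain, was lower in G-MDSC. Its probe set 1425364_a_at gave signals of 2532 and 2927 in G-MDSC replicates 1 and 2, and of 7103 and 5411 in neutrophils replicates 1 and 2. Both neutrophil arrays lay above both G-MDSC arrays, and the larger spread was within the neutrophils. The difference was -1.18 ± 0.31 (SE, n = 2 per group), a 2.27-fold lower signal, with a 95% interval of -1.88 to -0.49 and a limma adjusted p of 0.0496. Relative to the median of all kept probe sets, -0.20, it was -0.98, but that median was 0.03 with the 60th percentile filter. The call sat at the threshold: limma gave adjusted p = 0.35 at -1.08 without G-MDSC replicate 1, 0.197 at -1.29 without G-MDSC replicate 2 and 0.238 at -0.94 after median scaling. It was also lost with a pseudocount of 64 (adjusted p = 0.0529), without the filter (0.0638) and without the intensity trend (0.191), all by limma.

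The member with the largest difference was Slc7a8, the light chain LAT2, which exchanges large and small neutral amino acids. Probe set 1417929_at read 102 and 128 in the G-MDSC arrays and 1083 and 1332 in the neutrophil arrays. The groups were far apart and each was tight, and the pairs of equal replicate number differed by -3.22 and -3.23 (the numbers do not show that samples were paired). The fitted difference was -3.22 ± 0.38 (SE, n = 2 per group), a 9.34-fold lower signal in G-MDSC, with a 95% interval of -4.08 to -2.37 and a limma adjusted p of 0.00215. The G-MDSC signals lay above the 40th percentile of their own arrays, 45.7 and 52.6, so the gene was above the dim-signal limit in both groups. Slc7a8 was called lower in G-MDSC under every alternative setting run, with differences from -3.40 to -2.83 and a highest limma adjusted p of 0.0437.

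Most tested macrophage markers, and the tested monocyte markers, had differences of the same sign as Slc7a8 and Slc3a2. The macrophage markers Cd5l and Cx3cr1 had the opposite sign and were not called. Cd5l read 1068 and 1126 in the G-MDSC arrays and 187 and 956 in the neutrophil arrays (1.32, limma adjusted p = 0.254). The difference of Cx3cr1 was 0.31, with the groups overlapping. Adgre1, which encodes the F4/80 antigen used to deplete the neutrophil samples, read 817 and 643 in the G-MDSC arrays and 4847 and 7136 in the neutrophil arrays, a limma difference of -2.99 ± 0.33 (SE, n = 2 per group) with adjusted p = 0.00174. The brightest macrophage markers, Lyz1 and Csf1r, were not called. Of the monocyte list, the lipopolysaccharide co-receptor Cd14 read 22410 and 31970 against 42270 and 63590 and was not called (-0.95, limma adjusted p = 0.149). F13a1, a coagulation factor subunit, read 2425 and 3561 against 10920 and 8530 (-1.71, limma adjusted p = 0.0166) and was not called without G-MDSC replicate 1 (-1.44, adjusted p = 0.124). Fn1, which by mean linear signal was brighter than F13a1, read 818 and 636 against 12590 and 26240 (-4.63, limma adjusted p = 0.000555). No probe set of the macrophage or monocyte lists was at 0 in any array, and neither was any of the other marker lists. A signal over 0 therefore does not show that an RNA was present. The lowest macrophage signal was 1.52, far under the dim-signal limit. Summed monocyte markers were 30020 and 40480 in the G-MDSC arrays and 88850 and 131100 in the neutrophil arrays, and the part of these markers in the transporter results was not tested. Platelet markers, 3 of 9 tested called lower, had summed signals of 1371 and 1476 against 28190 and 37640, and mast cell and basophil markers, 5 of 10 lower and 1 higher, 20120 and 22700 against 41310 and 31060. Of 11 dendritic cell markers 3 were called lower, with sums of 14470 and 14660 against 31650 and 37180. In the other direction, 5 of 10 proliferation markers, 2 of 11 B and plasma cell markers and 2 of 13 neutrophil markers were called higher in G-MDSC, the first count falling to 0 without G-MDSC replicate 1. No tested marker of T and NK cells, erythroid cells, eosinophils or stromal cells was called. Of the mesothelial and stromal list 4 of 10 markers were tested, and its mesothelial markers did not pass the filter on dim signals. With 1 array left out, limma called between 9 and 13 macrophage and between 5 and 8 monocyte markers lower, a check added after seeing the data; the dendritic cell count was 1 without either G-MDSC array, and the platelet count was 5 without neutrophils replicate 1.

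The sequences just before the starts of the 2 called genes are shown because their transcripts were lower together. Both come from RefSeq on GRCm38.p6 and cover the 250 bases before the start, 5′ to 3′ on the strand of the gene, which is the minus strand for both: chr19:8713898-8714147 for Slc3a2 and chr14:54781887-54782136 for Slc7a8. No letters are in capitals, because none of the 3 motifs searched was found.
Slc3a2: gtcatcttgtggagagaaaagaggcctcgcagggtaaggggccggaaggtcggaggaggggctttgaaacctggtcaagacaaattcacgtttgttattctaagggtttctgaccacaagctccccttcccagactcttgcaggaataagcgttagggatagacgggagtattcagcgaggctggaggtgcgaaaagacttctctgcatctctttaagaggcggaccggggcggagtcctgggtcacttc
Slc7a8: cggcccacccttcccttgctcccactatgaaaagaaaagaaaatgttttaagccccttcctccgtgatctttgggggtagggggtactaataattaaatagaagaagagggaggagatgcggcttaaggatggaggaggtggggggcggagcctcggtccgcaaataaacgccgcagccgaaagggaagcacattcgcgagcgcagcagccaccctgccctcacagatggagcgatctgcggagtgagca
The Slc3a2 sequence has a GC content of 53.6% with 11 CG pairs and that of Slc7a8 55.6% with 14, beside medians of 52.4% and 6 over all such sequences. The motifs, searched on both strands, were the core of the C/EBP-ATF response element (TGATGNAA), through which ATF4 acts when amino acids are short, the E-box (CACGTG) and the core of the antioxidant response element (TGACNNNGC). They occur in 3.45%, 6.02% and 10.2% of 32851 promoter sequences of the same length. Promoter sequences were at hand for 7 of the 10 members, not for Slc7a5, Slc1a5 or Slc38a1. The first motif was in that of 1 member, Slc7a7, the E-box in 0 of 7, and the third in those of Slc7a6 and Slc38a2; no match of one motif in a member overlapped a match of another.

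Slc7a7 and Slc7a6 encode y+LAT1 and y+LAT2, the y+L light chains. The brighter Slc7a7 probe set, 1417392_a_at, read 210 and 195 in the G-MDSC arrays and 502 and 628 in the neutrophil arrays. Each G-MDSC array was below each neutrophil array, and the replicates of a group lay close together. The difference was -1.40 ± 0.38 (SE, n = 2 per group), with a 95% interval of -2.27 to -0.54, and limma gave an adjusted p of 0.0583, just short of the threshold. Other settings of the limma fit that crossed it were the 60th percentile filter (adjusted p = 0.0423), the robust trend (0.0483), a floor for low signals (0.0321), 1 probe set per gene (0.0234) and the absence of neutrophils replicate 1 (-1.56, adjusted p = 0.0183). The second probe set, 1447181_s_at, whose suffix marks probes that can match transcripts of other genes, read 91.0 and 129 in the G-MDSC arrays and 154 and 183 in the neutrophil arrays. It had the same order of arrays with a smaller difference, -0.56 ± 0.51 (limma adjusted p = 0.549). Slc7a7 and Slc7a8 lie on chromosome 14 with 15 protein-coding genes between them.

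Slc7a6 had both of its probe sets lower in both G-MDSC arrays. Probe set 1433467_at read 95.9 and 49.7 in the G-MDSC arrays and 238 and 369 in the neutrophil arrays, a difference of -1.87 ± 0.53 (SE, n = 2 per group; 95% interval -3.07 to -0.66; limma adjusted p = 0.0673). The value of 49.7 lay below the 40th percentile of its array, 52.6. Probe set 1460541_at read 142 and 199 in the G-MDSC arrays and 324 and 436 in the neutrophil arrays, a difference of -1.09 ± 0.43 (95% interval -2.05 to -0.12; limma adjusted p = 0.166). Neither passed the threshold in the reported fit, and the groups did not overlap in either. In limma the first passed with a floor for low signals (0.0303). With neutrophils replicate 1 left out the values were -2.17 (limma adjusted p = 0.0188) and -1.29 (limma adjusted p = 0.049), with the spread taken from the G-MDSC arrays alone.

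The match in Slc7a7 is shown with those of Asns and Chac1, ATF4 response genes that were called higher in G-MDSC, and of Slc7a11, a cystine carrier that was called lower, for comparison of the letters. The 30-base stretches are from RefSeq on GRCm38.p6, 5′ to 3′ on the strand of each gene, with the match to TGATGNAA in capitals. In Chac1 and in the second stretch of Slc7a11 the match is on the opposite strand and so reads as its reverse complement. The stretches are chr14:54418067-54418096 (minus) and chr14:54417923-54417952 (minus) for 2 starts of Slc7a7, chr6:7693214-7693243 (minus) for Asns, chr2:119351038-119351067 (plus) for Chac1, and chr3:50443661-50443690 and chr3:50443642-50443671 (both minus) for Slc7a11.
Slc7a7, first: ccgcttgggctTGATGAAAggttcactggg
Slc7a7, second: tagaagcTGATGCAAcagcttccccgaggg
Asns: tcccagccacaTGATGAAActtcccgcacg
Chac1: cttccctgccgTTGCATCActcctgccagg
Slc7a11, first: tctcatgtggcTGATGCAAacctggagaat
Slc7a11, second: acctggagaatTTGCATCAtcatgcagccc
The matches begin 141 and 243 bases before the Slc7a7 starts, 23 bases before that of Asns, 193 before that of Chac1, and 66 and 47 before that of Slc7a11. The first Slc7a7 match has the same 8 letters as that of Asns, and the second the same 8 as the first of Slc7a11. Slc7a7 signals were lower in G-MDSC without passing the test, those of Asns and Chac1 were higher and passed it, and those of Slc7a11 were lower and passed it, so genes with the match lay in both directions. A match of letters is a description and shows no binding.

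Slc7a5, the light chain LAT1, which carries leucine and other large neutral amino acids, was not called. Probe set 1418326_at read 1398 and 918 in the G-MDSC arrays and 882 and 846 in the neutrophil arrays. Both G-MDSC arrays were above both neutrophil arrays, yet G-MDSC replicate 2 was close to the neutrophils and G-MDSC replicate 1 carried most of the distance. The difference was 0.39 ± 0.35 (SE, n = 2 per group; 95% interval -0.40 to 1.17; limma adjusted p = 0.544), and it ranged from 0.09 to 0.68 over the alternatives, none of which called it. Slc7a5 thus had a positive value where its heavy chain Slc3a2 was called lower; the difference between the genes was not tested.

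Slc43a2, the carrier LAT4, which moves branched-chain amino acids, phenylalanine and methionine without a heavy chain, gave no settled direction. Its brightest probe set, 1439965_at, read 1310 and 873 in the G-MDSC arrays and 2609 and 474 in the neutrophil arrays. The neutrophil arrays lay on either side of both G-MDSC arrays, 2.42 apart on the log2 scale. The difference was -0.06 ± 0.67 (SE, n = 2 per group; 95% interval -1.58 to 1.45; limma adjusted p = 0.964). It became 1.15 without neutrophils replicate 1 and -1.27 without neutrophils replicate 2. The sign also turned after median scaling (0.18) and without G-MDSC replicate 2.

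The other Slc43a2 probe sets showed the same split of the neutrophils. Probe set 1434308_at read 352 and 367 in G-MDSC, which lay close together, and 797 and 271 in neutrophils (-0.36 ± 0.51; limma adjusted p = 0.703). Its difference was 0.39 without neutrophils replicate 1 and -1.11 without neutrophils replicate 2. Probe set 1456940_at read 67.7 and 13.6 in the G-MDSC arrays and 89.7 and 12.8 in the neutrophil arrays (-0.15 ± 1.13; limma adjusted p = 0.951). In both groups replicate 1 lay above the 40th percentile of its array and replicate 2 below. Here the G-MDSC arrays were split too, 1.50 apart on the log2 scale beside 1.88 for the neutrophils. In all 3 probe sets neutrophils replicate 1 was the highest of the 4 arrays and neutrophils replicate 2 the lowest.

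Slc1a5, the glutamine carrier ASCT2, was lower in both G-MDSC arrays without passing the test. Probe set 1416629_at read 360 and 265 in the G-MDSC arrays and 662 and 455 in the neutrophil arrays. The groups did not overlap, but G-MDSC replicate 1 and neutrophils replicate 2 were neighbours. The difference was -0.80 ± 0.39 (SE, n = 2 per group; 95% interval -1.69 to 0.09; limma adjusted p = 0.27). Probe set 1440379_at read 64.3 and 38.3 in the G-MDSC arrays and 70.1 and 87.8 in the neutrophil arrays, in the same order of groups but close to the dim-signal limit (-0.52 ± 0.74; limma adjusted p = 0.71).

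Slc1a4, the carrier ASCT1 for alanine, serine, cysteine and threonine, was near the floor of these arrays and was not tested. Probe set 1456003_a_at read 15.6 and 38.4 in the G-MDSC arrays and 82.8 and 118 in the neutrophil arrays. The neutrophil arrays were the higher ones, but only replicate 1 exceeded the 40th percentile of its array, 51.4, and the 118 of replicate 2 lay under its 133. Probe set 1423550_at read 40.8 and 10.9 in the G-MDSC arrays and 13.7 and 124 in the neutrophil arrays, all under these limits, and 1423549_at stayed between 3.28 and 15.5 in the 4 arrays. With 1 array above its limit in 1 of the 3 probe sets, no fold is given.

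The system A carriers Slc38a1 and Slc38a2, which encode SNAT1 and SNAT2 and are adjacent on chromosome 15 with 0 protein-coding genes between them, were not called in either direction. For Slc38a1, probe set 1415903_at read 566 and 558 in the G-MDSC arrays and 635 and 857 in the neutrophil arrays, with the groups separate and a difference of -0.38 ± 0.35 (SE, n = 2 per group; limma adjusted p = 0.547). Probe set 1454764_s_at read 897 and 444 in the G-MDSC arrays and 876 and 594 in the neutrophil arrays, so replicate 1 was the higher array in each group and the groups overlapped. Its difference was -0.19 ± 0.43 (limma adjusted p = 0.821), and the sign turned after median scaling (0.05), without neutrophils replicate 1 (0.09) and without G-MDSC replicate 2 (0.31).

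Slc38a2, the system A carrier whose translation rises when amino acids are short, had 3 probe sets with different values. The brightest, 1426722_at, read 6190 and 6377 in the G-MDSC arrays and 6632 and 4317 in the neutrophil arrays, an overlap, with a difference of 0.23 ± 0.32 (SE, n = 2 per group; 95% interval -0.50 to 0.96; limma adjusted p = 0.703) that was -0.08 without neutrophils replicate 2. Probe set 1429593_at read 1928 and 1841 in the G-MDSC arrays and 1538 and 682 in the neutrophil arrays. Its groups were separate, with neutrophils replicate 2 far below the other arrays, and the difference was 0.87 ± 0.41 (95% interval -0.06 to 1.80; limma adjusted p = 0.251). It was 1.45 without neutrophils replicate 1 (limma adjusted p = 0.0105) and 0.29 without neutrophils replicate 2 (limma adjusted p = 0.665). Probe set 1429594_at read 162 and 215 in the G-MDSC arrays and 142 and 282 in the neutrophil arrays, overlapping, with a difference of -0.10 ± 0.49 (limma adjusted p = 0.923). The probe sets of this gene thus disagreed in sign, and none was called in the reported fit.

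**Figure D2:**
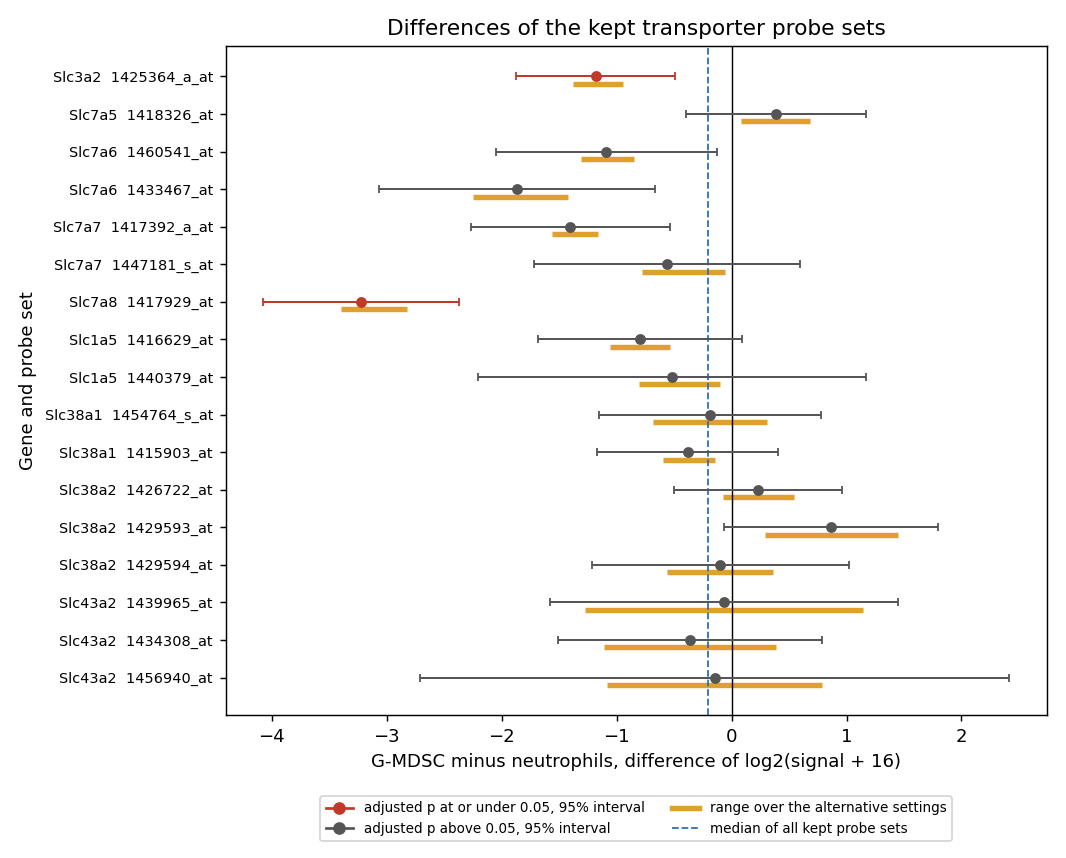
Difference of log2(signal + 16), G-MDSC minus neutrophils, for the 17 kept member probe sets, with 95% intervals from limma (n = 2 arrays per group); orange bars span the alternative settings and the dashed line is the median of all kept probe sets, -0.20. The intervals of Slc7a8 and Slc3a2, in red, belong to the probe sets called lower, and those of Slc43a2 are among the widest.

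Among carriers outside the set, those of cationic amino acids and cystine held the largest differences. Of 10 tested genes of that list 3 were called lower in G-MDSC and 1 higher, 30% and 10% beside 5.62% and 5.22% of all genes, with a median difference of -0.47 beside -0.19. Slc7a11, the cystine-glutamate exchanger, which also uses the Slc3a2 heavy chain, read 172 and 190 in the G-MDSC arrays and 6452 and 4657 in the neutrophil arrays. Its difference came to -4.81 ± 0.33 (SE, n = 2 per group; limma adjusted p = 0.000286). Slc7a2, a cationic carrier, read 52.6 and 55.4 in G-MDSC, just above the 40th percentiles of those arrays, and 2913 and 2075 in neutrophils (-5.14 ± 0.38; limma adjusted p = 0.000364). Slc7a1, another cationic carrier, read 605 and 360 against 1504 and 1973 (-1.85 ± 0.37; limma adjusted p = 0.0206). It was not called without G-MDSC replicate 2 (-1.49), with median scaling or without the intensity trend. Ctns, the lysosomal cystine exporter, was higher, at 487 and 605 against 163 and 132 (1.79 ± 0.40; limma adjusted p = 0.0302). The 132 in neutrophils replicate 2 lay just under the 40th percentile of that array, 133. Ctns was not called with quantile normalization or without the intensity trend. Its adjusted p was 0.219 without G-MDSC replicate 1 and 0.343 without G-MDSC replicate 2. Of 17 tested other neutral carriers 1 was called lower and 0 higher (5.88% lower, near the share of all genes; median -0.21): Slc16a10, an aromatic amino acid carrier, at 971 and 1098 against 2917 and 2948 (-1.49 ± 0.30; limma adjusted p = 0.0207). Slc16a10 was not called with median scaling or without the intensity trend. Limma gave it adjusted p = 0.132 without G-MDSC replicate 1 and 0.0754 without G-MDSC replicate 2. Without neutrophils replicate 1, 2 of these carriers were lower and 1 higher. Slc7a10, another light chain of Slc3a2, read 47.7 and 62.1 in the G-MDSC arrays and 34.8 and 325 in the neutrophil arrays and was not called (-0.90 ± 0.92; limma adjusted p = 0.594).

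Among genes that sense or answer to amino acids, calls went in both directions. Of 20 tested genes of the ATF4 response, 3 were called higher and 1 lower in G-MDSC (15% and 5%, beside 5.22% and 5.62% of all genes), with a median of -0.51. The count lower was not stable: it was 3 beside 2 higher with the 60th percentile filter, 3 beside 3 with the robust trend, 4 beside 3 with a floor for low signals or 1 probe set per gene, and 0 beside 0 without the intensity trend. The share of all kept probe sets called lower, 4.31% as reported, moved too. It was 6.77% with that filter, 4.66% with the robust trend, 5.99% with the floor and 0.64% without the intensity trend. With 1 probe set per gene it was 8.04% of all genes. Asns, asparagine synthetase, read 1861 and 1680 in the G-MDSC arrays and 522 and 384 in the neutrophil arrays (1.94 ± 0.34; limma adjusted p = 0.0113). Chac1, which degrades glutathione, read 731 and 981 against 179 and 227 (1.99 ± 0.38; limma adjusted p = 0.0165), and Ddit3, the stress factor CHOP, 3123 and 6306 against 1534 and 1642 (1.47 ± 0.38; limma adjusted p = 0.0479). Nupr1, a stress-induced nuclear protein, was lower, at 237 and 671 against 1532 and 1954 (-2.07 ± 0.48; limma adjusted p = 0.0334). None of these genes was called without the intensity trend. Ddit3 and Nupr1 were also not called with quantile normalization or median scaling. Ddit3 was lost with a pseudocount of 64, with the 60th percentile filter and without the filter as well. In limma, Asns (adjusted p = 0.0507), Chac1 (0.0571) and Nupr1 (-1.35, 0.198) were not called without G-MDSC replicate 1. Chac1 (0.171) and Ddit3 (0.97, 0.469) were not called without G-MDSC replicate 2, nor was Nupr1 (0.054) without neutrophils replicate 2. Without neutrophils replicate 1 the list had 4 genes higher and 4 lower. Atf4 itself read 5722 and 7993 against 5221 and 5410 and was not called (0.35 ± 0.31; limma adjusted p = 0.541).

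Of 34 tested genes of lysosomal sensing and mTORC1, 2 were called higher in G-MDSC and 0 lower (median 0.19), and the share higher, 5.88%, was near the 5.22% of all genes. Lamtor4, a subunit of the Ragulator complex, read 4373 and 3658 in the G-MDSC arrays and 1480 and 1383 in the neutrophil arrays (1.47 ± 0.30; limma adjusted p = 0.0213). Sesn1, which restrains mTORC1 when amino acids are low, read 1275 and 1017 against 385 and 389 (1.52 ± 0.34; limma adjusted p = 0.03). Sesn1 was not called with quantile normalization. Lamtor4 and Sesn1 were both not called without the intensity trend. Neither was called without G-MDSC replicate 1 (limma adjusted p = 0.167 and 0.321) or without G-MDSC replicate 2 (0.0686 and 0.118). The list had 3 genes called in each direction without neutrophils replicate 1. Of 19 tested genes of neutral amino acid metabolism, 3 were called higher and 0 lower (15.8% higher; median -0.10). Bckdha, of branched-chain keto acid oxidation, read 1043 and 945 against 284 and 146 (2.19 ± 0.41; limma adjusted p = 0.0156). The transaminases Gpt2 and Got2 differed by 2.27 ± 0.55 (limma adjusted p = 0.0387) and 1.19 ± 0.30 (limma adjusted p = 0.0425), with Gpt2 at 249 and 563 against 52.6 and 80.1 and Got2 at 6297 and 6943 against 3150 and 2648. The Gpt2 signal of 80.1 in neutrophils replicate 2 lay under the 40th percentile of its array, 133. The 52.6 of replicate 1 was just over its 51.4. Bckdha was not called with quantile normalization, Gpt2 without the filter, and Got2 without the filter or with median scaling. Without the intensity trend none of these genes was called. Without G-MDSC replicate 1, limma's adjusted p was 0.0723 for Bckdha, 0.0926 for Gpt2 (2.83) and 0.205 for Got2. Gpt2 (0.595) and Got2 (0.319) were also not called without G-MDSC replicate 2, nor Got2 without neutrophils replicate 2 (0.0514), and without neutrophils replicate 1 this list had 3 genes higher and 2 lower.

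**Figure D3:**
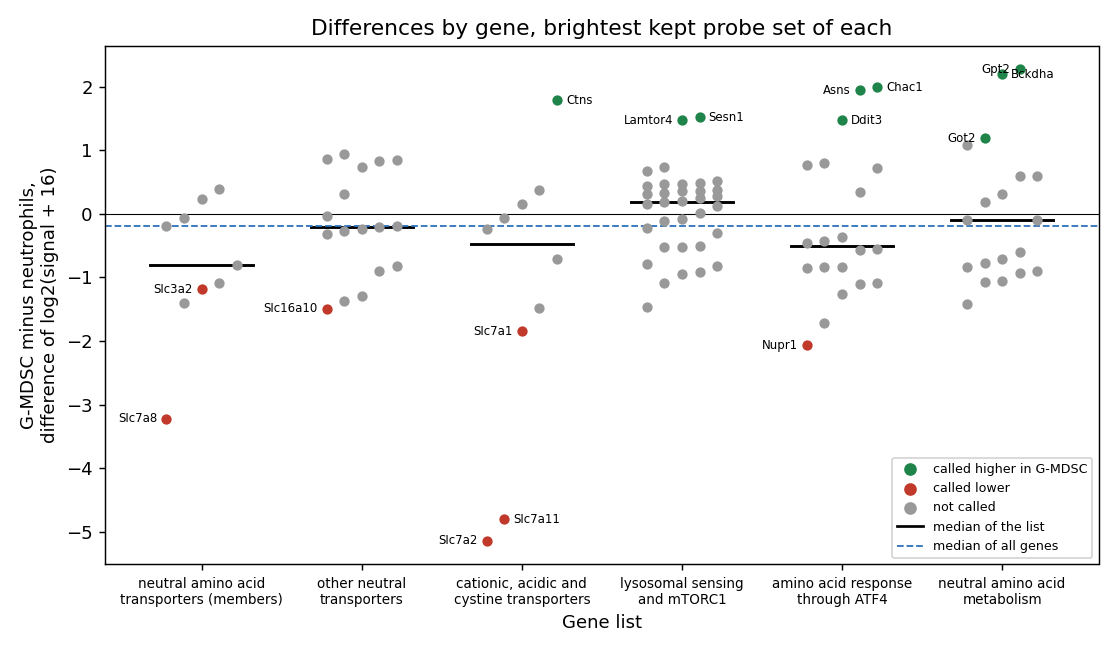
Difference of log2(signal + 16), G-MDSC minus neutrophils, for the brightest kept probe set of each gene in 6 gene lists; short black lines are list medians and the dashed line is the median of all genes, -0.19. Named points passed limma at an adjusted p of 0.05, with Slc7a8 and Slc3a2 the called members and Slc7a11 and Slc7a2 at the bottom of their list.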

How the data were processed

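Affymetrix mouse expression arrays of 2 G-MDSC and 2 neutrophil samples were analysed. The intensity values are the authors' deposited linear signals. The submitters' processing notes name GCOS 1.4 and MAS5. The mean after trimming 2% at each end is 500 in each array, so the arrays were already scaled to each other. Of 45101 probe sets, 64 are controls, 34945 carry 1 gene symbol in the platform annotation and 932 several, which were not named. All 10 members were found by gene ID in the RefSeq table for GRCm38.p6, used for names, neighbours and promoters. Detection calls were not used.

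Signals entered as log2(signal + 16), which shrinks the differences of dim probe sets. Probe sets had to exceed the 40th percentile within an array in 2 or more of the 4 arrays, leaving 28754. Differences were fitted per probe set with limma 3.58.1 in R 4.3.3 (lmFit, eBayes with intensity trend, two-sided) and adjusted by Benjamini-Hochberg over all kept probe sets. "Called" means an adjusted p at or under 0.05, and "higher" or "lower" is G-MDSC against neutrophils. No exact permutation test was run, because 0.33 is the smallest p it can reach with 2 arrays against 2. In gene lists, each gene took its brightest kept probe set.

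The members, gene lists and marker lists were chosen with earlier results of these data known. The text names all 10 members. From each pathway list it names up to 3 called genes per direction with the largest difference. From marker lists with calls it names the 2 brightest by mean log2 value, and Adgre1. Marker lists given only by counts or sums name none. Slc7a10, Atf4, Fn1, Cd5l and Cx3cr1 were chosen after their values were seen. The functions were tested on simulated data. There were 16 alternatives. Sequences and figures used Python 3.11.15, pandas 2.3.3 and matplotlib 3.10.9.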

Additional observations from a re-analysis of the deposited data

How the results depend on the processing

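Under the 16 alternatives, Slc7a8 stayed lower and called in each. The count of member probe sets called lower was 2 as reported, beside 4.31% of all kept probe sets. It was 4 with a floor for low signals (beside 5.99%). It was 3 with the 60th percentile filter (6.77%), the robust trend (4.66%) or 1 probe set per gene (8.04% of genes). It was 1 with median scaling (2.54%), without the filter (2.11%), without the intensity trend (0.64%) or with a pseudocount of 64 (4.03%). It ranged from 1 to 5 when 1 array was left out, and the count called higher, 0 as reported, from 0 to 2. The brightest Slc43a2 probe set, at -0.06, ranged from -1.27 to 1.15 with 1 array left out, where fewer arrays enter; it was called higher without neutrophils replicate 1 (1.15). The cause of the other changes was not tested.

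With the replicate number as a block, 4 member probe sets were called lower and 1 higher by limma. Besides Slc3a2 and Slc7a8 these were Slc7a7 1417392_a_at (adjusted p = 0.0095) and Slc7a6 1433467_at (0.00793), and the higher one was Slc38a2 1429593_at (0.0474). With the block and quantile normalization 4 were lower and 0 higher, among them the same Slc7a7 (0.0361) and Slc7a6 (0.0291) probe sets. The ATF4 response list had 3 genes higher and 5 lower with the block. Over all kept probe sets the block raised the calls from 1071 higher and 1238 lower to 2799 and 2753. Samples with the same number had deviations correlated at 0.296 over the kept probe sets, and with 2 pairs this does not show that the numbers pair the samples. Over all kept probe sets the calls fell to 41 higher and 185 lower without the intensity trend and rose to 3302 and 4591 without neutrophils replicate 1.

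With 2 arrays per group, the difference of -1.18 for Slc3a2 sat at the threshold, and an adjusted p above it does not show that a member was equal in both groups. The signals of Slc1a4 and of the dim probe sets of Slc1a5 and Slc43a2 lie below the dim-signal limit in 1 or more arrays of each group.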
